A study of Mus musculus with 74 samples.

Results

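Mouse chromosomes 16, 17, 18 and 19 are the shortest autosomes. Their interiors were followed here through 74 genome architecture mapping (GAM) libraries, which record the DNA held by a thin slice of a single nucleus. An interior was every 40 kb window starting at or beyond 23 Mb and ending more than 10 Mb before the last window of its chromosome, so that centromere-proximal and telomere-proximal sequence was left out. This rule took 5340 of the 68162 windows of the mm9 table. Of these, 1632 were on chromosome 16 (chr16:23000001-88280000), 1556 on chromosome 17 (chr17:23000001-85240000), 1444 on chromosome 18 (chr18:23000001-80760000) and 708 on chromosome 19 (chr19:23000001-51320000). The same rule gave 40782 windows on chromosomes 1 to 15, which served as the comparison.

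All libraries were single nuclear profiles (1NP) of the embryonic stem cell line 46C, on a 129/Ola background. The line was derived from E14tg2a and carries a green fluorescent protein reporter in the Sox1 gene. Cells were grown on gelatin with serum and leukaemia inhibitory factor and were moved to a serum-free medium for the last day before harvest. The labels give 1 group with no treatment, time course or control. They do not say whether the nuclei came from separate cultures, so every p-value measures only the spread between these 74 libraries. The 46C line is a single derived line, and the calls are of DNA, so its cell type could not be checked by markers. Library names begin with f13 (34 libraries) or f14 (40 libraries), and the labels do not say what the prefix stands for. Values within each prefix are given beside most of the pooled comparisons. Over the whole genome, a library was positive for 5.27% ± 2.68 of windows (SD, n = 74), from 0.0205% to 12.4%, and 5 libraries were under 1%. Read depth is unknown because the table holds calls only.

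In an interphase nucleus each chromosome occupies its own territory, and a thin slice passes through some territories and misses others. Where a slice passes through a territory it picks up short runs of neighbouring loci, and loci that lie near each other in space are picked up together more often. Co-segregation, the share of slices holding both loci, therefore falls with genomic distance on the same chromosome (in cis) towards a lower level between chromosomes (in trans). Gene-dense chromosomes are known to lie more centrally in many nuclei than gene-poor ones. Both homologous copies of a chromosome map to the same windows and cannot be told apart in this table.

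To show what the extremes of detection look like as sequence, the middle 150 bases of the most detected window and of the first never-detected window without unknown bases are printed for chromosomes 16, 17 and 19, from NCBIM37 (the sequence of mm9), plus strand. Capitals mark CpG dinucleotides. The most detected windows were positive in 12, 20 and 10 libraries on chromosomes 16, 17 and 19, and the one shown for 19 is the first of 2 windows tied at 10.
Chromosome 16, 12 libraries, chr16:64739926-64740075: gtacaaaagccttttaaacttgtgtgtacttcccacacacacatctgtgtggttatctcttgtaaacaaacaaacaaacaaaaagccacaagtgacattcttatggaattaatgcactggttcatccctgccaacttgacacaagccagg
Chromosome 16, 0 libraries, chr16:23579926-23580075: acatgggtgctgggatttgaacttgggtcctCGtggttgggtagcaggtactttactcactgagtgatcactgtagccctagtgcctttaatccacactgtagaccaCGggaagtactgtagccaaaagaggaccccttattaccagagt
Chromosome 17, 20 libraries, chr17:39979926-39980075: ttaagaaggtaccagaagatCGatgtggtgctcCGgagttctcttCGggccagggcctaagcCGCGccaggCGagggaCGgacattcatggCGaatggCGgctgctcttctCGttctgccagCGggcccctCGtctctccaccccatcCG
Chromosome 17, 0 libraries, chr17:30139926-30140075: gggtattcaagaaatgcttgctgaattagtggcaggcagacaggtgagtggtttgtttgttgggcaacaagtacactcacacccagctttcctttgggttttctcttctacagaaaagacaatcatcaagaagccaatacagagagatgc
Chromosome 19, 10 libraries, chr19:45739926-45740075: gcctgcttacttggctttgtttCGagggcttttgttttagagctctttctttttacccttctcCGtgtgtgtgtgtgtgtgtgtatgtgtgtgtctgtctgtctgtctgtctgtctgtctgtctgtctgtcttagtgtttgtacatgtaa
Chromosome 19, 0 libraries, chr19:24979926-24980075: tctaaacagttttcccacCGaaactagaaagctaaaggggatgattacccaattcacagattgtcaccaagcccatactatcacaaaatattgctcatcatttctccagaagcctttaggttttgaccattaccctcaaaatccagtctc
None of these 6 stretches overlapped an annotated gene, although 5 of the 6 windows held part of a gene elsewhere. The chromosome 17 stretch from the window in 20 libraries held 13 CpG and was 62.7% G or C, although its whole window was 40.9% G or C. The other 5 stretches held 0 to 2 CpG. Windows found in 0 of 74 libraries may still be present in up to 4.05% of slices.

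The interiors differed in gene content by the GENCODE annotation of the same assembly. Chromosome 17 held 13.8 protein-coding genes per Mb and chromosome 19 held 9.64. Chromosome 18 held 7.03 and chromosome 16 held 4.96, against 8.94 on chromosomes 1 to 15. Chromosomes 17 and 19 are called gene-dense below and 16 and 18 gene-poorer. By the share of windows overlapping a protein-coding gene, the order was chromosome 19 (72.6%), 17 (61.4%), 18 (53.6%) and 16 (43.1%). The mean GC content of the windows was 39.5% ± 3.19 on chromosome 16, 43.1% ± 4.68 on 17, 41.8% ± 3.38 on 18 and 42.6% ± 3.49 on 19 (SD over windows).

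Slices covered the small interiors unevenly. The mean coverage, that is the percent of an interior's windows called positive in a library, was 5.08% ± 6.43 on chromosome 16, 5.25% ± 7.12 on 17, 5.80% ± 7.26 on 18 and 5.18% ± 8.24 on 19 (SD, n = 74). The medians were well below these means, at 2.30%, 2.54%, 2.87% and 0.847%. Chromosome 16 had 23 libraries without a single positive window, chromosome 17 had 10, chromosome 18 had 11 and chromosome 19 had 22. At the upper end, library f14b3 was positive for 400 of the 1632 windows of chromosome 16 (24.5%, 95% Wilson interval 22.5% to 26.7%). Library f14c5 reached 31.4% of chromosome 17 (interval 29.2% to 33.8%), f14d2 reached 35.1% of chromosome 18 (interval 32.7% to 37.6%) and f14g1 reached 41.5% of chromosome 19 (interval 37.95% to 45.2%). These intervals treat windows as independent and cover counting error only. No library was positive for more windows of any interior than it missed. A different library was the richest in each of the 4 interiors. The 3 libraries with the highest coverage of the 4 interiors pooled were f13b4 (17.7%), f14b3 (16.8%) and f14c5 (16.3%), and all 4 chromosomes were cut in each.

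**Figure D1:**
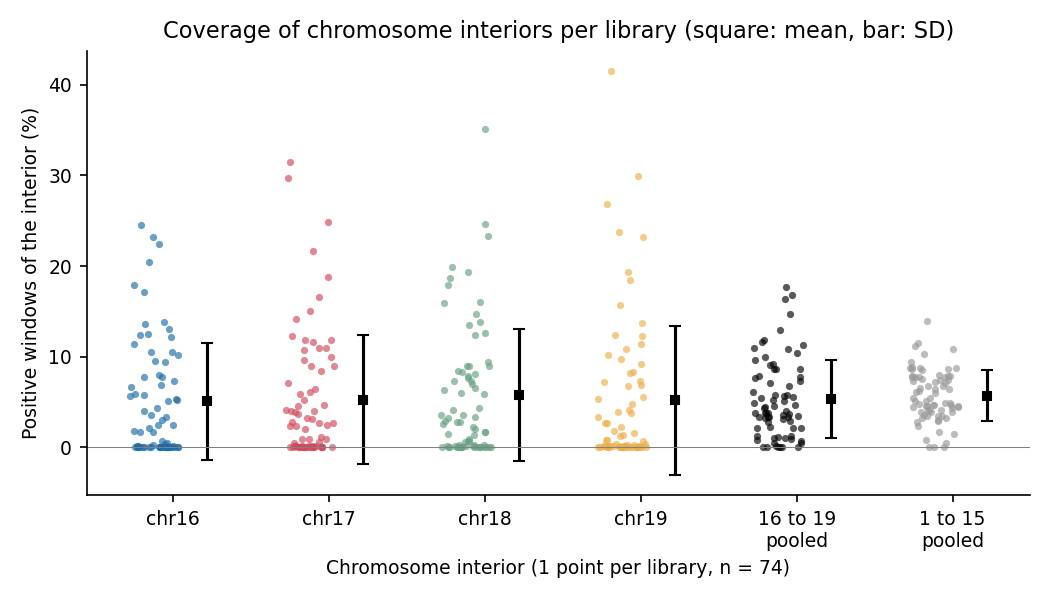
Percent of interior windows positive in each of the 74 libraries (points), with the mean (square) and SD (bar), for chromosomes 16 to 19 singly and pooled and for chromosomes 1 to 15 pooled. Most points of the single chromosomes lie near 0 and a few reach from 24.5% to 41.5%, while the pooled interiors spread less.

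The small interiors were not covered less than the larger autosomes beyond the spread between libraries. Pooled, chromosomes 16 to 19 had a coverage of 5.34% ± 4.34 and chromosomes 1 to 15 of 5.71% ± 2.85 (SD, n = 74). The difference was -0.375 percentage points (95% interval over resampled libraries, -1.17 to 0.420), with 31 libraries higher on the small chromosomes and 43 lower (two-sided sign-flip permutation test, p = 0.360). It was -0.405 in the f13 libraries (p = 0.462) and -0.350 in the f14 libraries (p = 0.566). Over whole chromosomes from 3 Mb it was -0.0906 (sign-flip permutation p = 0.821). Tested singly against the mean of the other autosomes, 0 of the 4 chromosomes departed after Benjamini-Hochberg adjustment, as did 0% of all 19 autosomes, and 0 of 19 had an unadjusted p under 0.05. The differences were -0.552 points for chromosome 16 (interval -1.92 to 0.881), -0.370 for 17 (-1.79 to 1.16), 0.211 for 18 (-1.19 to 1.76) and -0.448 for 19 (-2.11 to 1.42). In the order 16, 17, 18 and 19 they were -1.17, 0.136, 0.888 and -1.72 in f13 and -0.0264, -0.801, -0.364 and 0.630 in f14, so that 3 of the 4 turned in sign between the prefixes. Single libraries moved them too, to -0.668 for 17 without f13b4, -0.179 for 18 without f14d2 and -0.932 for 19 without f14g1.

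By their SD, the coverages of chromosomes 17, 18 and 19 varied widely between libraries. The SD of chromosome 19 was the highest of the 19 autosomes, that of 18 ranked 2 and that of 17 ranked 3, whereas chromosome 16 ranked 14. The interiors differ in length, so stretches of equal length were compared. In 7 stretches of 28.32 Mb on chromosomes 16 to 19 the SD over libraries ranged from 7.01 to 8.74 points with a median of 7.99. In the 53 stretches of that length on chromosomes 1 to 15 it ranged from 5.42 to 10.7 with a median of 8.09. The number of libraries with 0 positive windows had a median of 22 in the first set and of 20 in the second. At equal length, the small chromosomes thus lay inside the range of the larger ones.

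A territory was called cut in a library where at least 3 adjacent windows were positive. Chromosome 16 was cut in 39 of 74 libraries (52.7%, 95% Wilson interval 41.5% to 63.7%), chromosome 17 in 43 (58.1%, 46.7% to 68.7%), chromosome 18 in 49 (66.2%, 54.9% to 75.95%) and chromosome 19 in 34 (45.9%, 35.1% to 57.2%). A further 12, 21, 14 and 18 libraries had positive windows on these chromosomes but no such run. All 4 chromosomes were cut in 16 libraries, 3 in 18, 2 in 14, 1 in 19 and none in 7. Of those 7 libraries, 4 were positive for less than 1% of the genome. The median genome coverage was 0.431% in the libraries cutting none and 7.27% in those cutting all 4.

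In length-matched stretches the small and the larger chromosomes did not differ in cut frequency beyond the spread between libraries. A stretch of 28.32 Mb was cut in 46.9% ± 29.6 of cases on chromosomes 16 to 19 and in 48.2% ± 19.7 on 1 to 15 (SD over 74 libraries). The difference was -1.33 points (interval -6.21 to 3.60, sign-flip permutation p = 0.597), and -0.676 without library f13e4. By prefix it was 1.19 points in f13 (p = 0.742) and -3.47 in f14 (p = 0.330). By chromosome the stretches were cut in 43.9% of cases on chromosomes 16 and 17, 53.4% on 18 and 45.9% on 19. On the gene-dense chromosomes the cut frequency was 44.6% ± 39.1 and on the gene-poorer ones 48.6% ± 33.6, a difference of -4.05 points (interval -13.3 to 5.41, p = 0.418). Within f13 that difference was -0.980 (p = 0.925) and within f14 it was -6.67 (p = 0.296). With a single positive window counted as a cut, the direction of the gene-dense contrast turned to 2.59 points (p = 0.553), and the difference between chromosomes 16 to 19 and 1 to 15 widened to -4.74 points (p = 0.0505). With at least 5% of windows positive counted as a cut, the gene-dense contrast was -2.14 points (sign-flip permutation p = 0.646). Under that rule the difference between chromosomes 16 to 19 and 1 to 15 was -0.936 points (sign-flip permutation p = 0.713).

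A cut territory was sampled sparsely, although its first and last positive windows lay far apart. Among the libraries that cut it, the median coverage was 7.78% for chromosome 16 (range 0.735% to 24.5%), 6.43% for 17 (0.900% to 31.4%), 7.34% for 18 (0.554% to 35.1%) and 8.26% for 19 (0.847% to 41.5%). The first and last positive windows nevertheless enclosed a median of 80.5%, 87.5%, 85.0% and 81.9% of the interior, a span in which isolated windows count too. When the interior was divided at its middle window into a proximal and a distal part, both parts were cut in 25 of the 39 libraries that cut chromosome 16 (64.1%, interval 48.4% to 77.3%). The same held for 27 of 43 on chromosome 17, 29 of 49 on 18 and 18 of 34 on 19 (52.9%, interval 36.7% to 68.5%). In the remaining cutting libraries 1 of the parts held no run of 3 windows.

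Positive windows came in short runs. The mean run was 1.95 windows on chromosome 16, 2.03 on 17, 2.05 on 18 and 2.19 on 19, and isolated windows made up 25.5% to 30.3% of the positive windows of each. The longest runs were 31 windows on chromosome 16 and 39 on chromosome 17, both in library f14c5, which is 1.24 Mb and 1.56 Mb. The longest on chromosome 18 was 1.60 Mb in f14d2 and the longest on 19 was 0.920 Mb in f14g1. Chromosomes 1 to 15 reached 2.12 Mb in f14b1, over a larger number of windows.

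Filling, the percent of windows positive inside 1 Mb blocks that held at least 1 positive window, measured how completely a block was captured. It was 22.4% on chromosome 16 (95% interval 19.6% to 25.2%), 22.7% on 17 (19.5% to 26.02%), 22.5% on 18 (19.2% to 25.8%) and 25.1% on 19 (20.6% to 29.4%). For chromosomes 16 to 19 pooled it was 22.8% and for 1 to 15 it was 23.3%, a difference of -0.448 points (interval -1.99 to 1.10, within-library class-swap permutation p = 0.567), which became -0.679 without library f14c5 and -0.207 without f14d4. Concordance, the percent of the neighbours of a positive window that were positive too, was 50.7% against 52.2% (difference -1.41, interval -3.75 to 0.962, permutation p = 0.235).

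Both measures differed in sign between the name prefixes. In the f13 libraries filling was lower on the small chromosomes (difference -2.37 points, permutation p = 0.0085), and so was concordance (difference -4.04 points, p = 0.00133). In the f14 libraries both differences had the opposite sign, 1.22 points for filling (p = 0.315) and 0.954 for concordance (p = 0.628). The test of the difference between prefixes gave an unadjusted p of 0.0232 for filling and 0.0413 for concordance, each with an adjusted p of 0.165 over 8 comparisons. The part of the prefix in these values was not tested further.

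Gene-dense and gene-poorer small chromosomes did not differ in coverage, filling or concordance beyond the spread. Coverage was 5.23% ± 5.99 on chromosomes 17 and 19 and 5.42% ± 5.15 on 16 and 18 (difference -0.190 points, interval -1.71 to 1.33, sign-flip permutation p = 0.814), and the difference was -0.226 in f13 and -0.160 in f14, -0.488 without library f14g1 and 0.0689 without f13b2. Over whole chromosomes from 3 Mb this coverage difference was -0.0567. Filling was 23.4% against 22.4% (difference 0.961, interval -2.17 to 4.07, permutation p = 0.562), with 0.934 in f13 and 0.979 in f14 and 0.237 without library f13b4. Concordance was 51.9% against 49.9% (difference 1.93, interval -2.80 to 6.38, p = 0.421), with 1.72 in f13 and 2.13 in f14 and 0.926 without library f14g1.

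Co-segregation in cis fell with distance, most steeply over the first few Mb. As a share of libraries it was 2.71% at 0.04 Mb and 0.577% at 40 Mb on the small chromosomes, the scale used in trans below. The percents that follow are on another scale, the share of positive windows whose partner was positive too. On chromosomes 16 to 19, the partner of a positive window was positive in 50.7% of cases at 0.04 Mb (interval 46.8% to 54.5%). The value was 39.6% at 0.2 Mb and 28.1% at 1 Mb, and by 4 Mb it was 17.3%. Beyond that the fall was slower, with 13.4% of partners positive 10 Mb away and 12.4% positive 20 Mb away. At the longest distance, 40 Mb, it was 10.4% (interval 7.64% to 13.2%). Chromosomes 1 to 15 gave 52.2%, 40.3%, 27.5%, 17.4%, 14.5%, 13.3% and 12.1% at the same distances. Of the 7 differences, 0 passed the adjusted threshold of the class-swap permutation test and 0 had an unadjusted p under 0.05. They ranged from -1.65 points at 40 Mb (interval -4.52 to 1.22) to 0.614 points at 1 Mb (interval -1.96 to 3.03), and the lowest adjusted p was 0.594. In the f13 libraries alone all 7 were lower on the small chromosomes, and 2 of them passed the class-swap permutation test. The difference at 0.04 Mb was -4.04 points (adjusted p = 0.00931), which is the concordance result above, here adjusted over 7 distances. At 0.2 Mb the difference was -3.28 points (adjusted p = 0.0397). The f13 differences at 1 Mb (-1.37 points) and 4 Mb (-2.03 points) did not pass. In the f14 libraries alone the first 4 had the opposite sign, with 0.954 points at 0.04 Mb and 1.52 at 0.2 Mb, and 0 of 7 passed (adjusted p = 0.656 for each). Leaving out 1 library turned the sign at 1 Mb (-0.0120 without f14c5) and at 4 Mb (0.521 without f14d4). It moved the value at 0.2 Mb to -1.31 without f14c5 and to -0.299 without f14b1. Without f13b4 the value at 10 Mb was -1.87 and that at 20 Mb was -1.39, and without f14d4 the value at 10 Mb was -0.718.

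**Figure D2:**
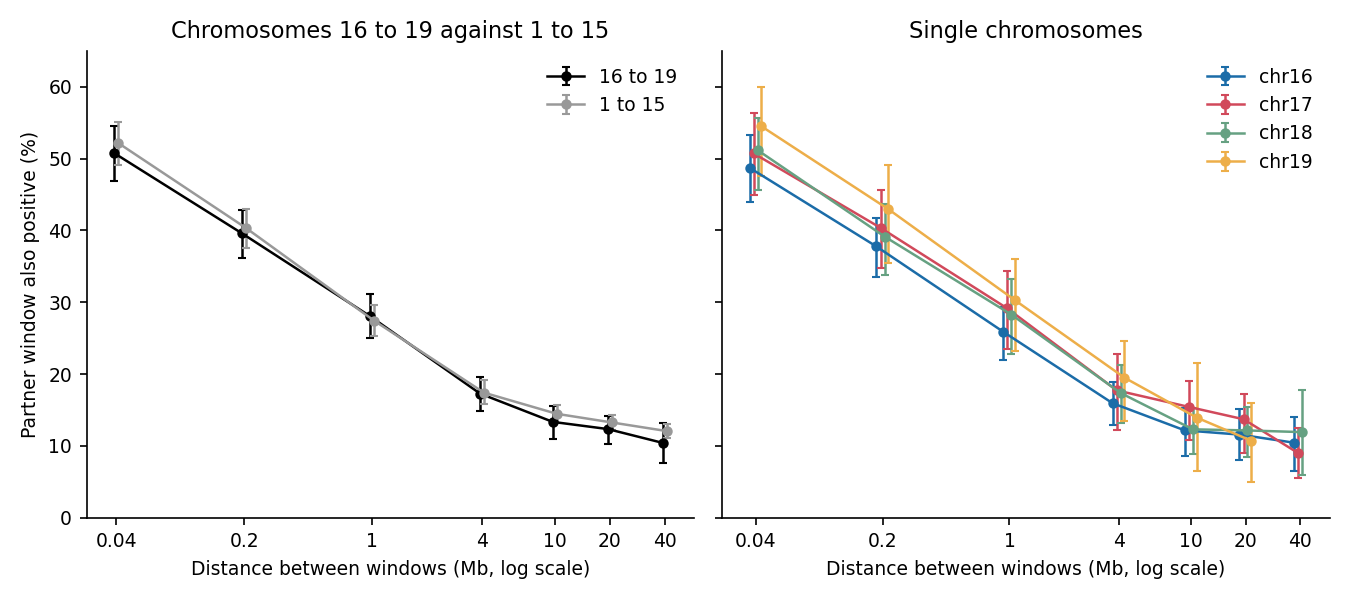
Percent of positive windows whose partner window is also positive (y axis) against the distance between the windows in Mb on a log scale, with 95% intervals over resampled libraries. The intervals of chromosomes 16 to 19 and 1 to 15 overlap at each distance, from 50.7% and 52.2% at 0.04 Mb to 10.4% and 12.1% at 40 Mb, and chromosome 19 has no windows 40 Mb apart.

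Chromosome 19 had the highest and chromosome 16 the lowest values up to 4 Mb, within overlapping intervals. At 0.04 Mb the 4 chromosomes were at 48.7% (16), 50.7% (17), 51.2% (18) and 54.5% (19). At 1 Mb they were at 25.9%, 29.1%, 28.3% and 30.3%, and at 4 Mb at 15.95%, 17.7%, 17.4% and 19.5%. By 20 Mb the order had changed, with 11.6%, 13.7%, 12.2% and 10.7%. The gene-dense pair exceeded the gene-poorer pair at each of the 6 distances from 0.04 to 20 Mb, by 1.31 to 2.82 points. At 40 Mb, where chromosome 19 has no windows, the order was the opposite, with 9.01% on 17 and 11.1% on 16 and 18. Each excess moved by more than 1.5 times without 1 library. Without f14c5 the value at 0.2 Mb was 1.62 points in place of 2.70 and the value at 1 Mb was 1.202 in place of 2.39. For 4 Mb it was 0.183 in place of 1.58, and for 20 Mb it was 0.1197 in place of 1.31. Without f14g1 it was 0.926 at 0.04 Mb and 1.32 at 10 Mb, in place of 1.93 and 2.82. Other libraries moved it upwards, to 2.63 at 4 Mb without f14d2 and to 2.72 at 20 Mb without f14b3. With no library left out but with isolated windows removed, the 20 Mb value was -0.783. None of these 6 differences passed (lowest adjusted p = 0.621, 0 with an unadjusted p under 0.05), and their intervals reached from -3.80 to 7.30 points. The 6 distances use the same calls and are not independent.

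Against the level between chromosomes, neighbouring windows of the small chromosomes co-segregated 7.66 times as often at 0.04 Mb (interval 6.49 to 9.56). The ratio was 4.24 at 1 Mb and 2.59 at 4 Mb. It was 1.97 for windows 10 Mb apart and 1.63 for windows 40 Mb apart (interval 1.13 to 2.33). On chromosomes 1 to 15 it was 7.86 at 0.04 Mb and 1.84 at 40 Mb (interval 1.70 to 2.03). Within single libraries, cis exceeded trans on the small chromosomes in 68 of 74 at 0.04 Mb, 42 at 20 Mb and 36 at 40 Mb. At 40 Mb the cis value lacks chromosome 19, while the level between chromosomes still includes its pairs. Pooled and averaged over libraries, windows of the same small chromosome were together more often than windows of different small chromosomes at every distance measured. Singly, the interval included 1 at 40 Mb on chromosome 16 (0.904 to 2.05), 17 (0.797 to 1.77) and 18 (0.955 to 4.31), and on chromosome 19 at 10 Mb (0.848 to 3.46) and 20 Mb (0.892 to 2.90). At 20 Mb it lay above 1 on chromosomes 16 (1.61), 17 (1.84) and 18 (2.07). On chromosome 19, 17 of the 74 libraries held any pair of positive windows 20 Mb apart.

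Windows on different small chromosomes shared a library in 0.353% of cases on average over the 6 chromosome pairs (95% interval 0.235% to 0.488%). For the 105 pairs among chromosomes 1 to 15 the value was 0.379% (interval 0.303% to 0.463%). Divided by the product of the mean coverages, these were 1.25 and 1.18, a difference of 0.0683 (interval -0.290 to 0.464, permutation p = 0.732). Although the mean was higher for the small chromosomes, 24 libraries were higher for them and 50 were lower. Without library f13b4 the difference was 0.0323. The difference was 0.143 in the f13 libraries (p = 0.638) and 0.0136 in the f14 libraries (p = 0.960).

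Because libraries with more of the genome hold more of every chromosome, each pair was also set against values obtained by shuffling libraries of like coverage. On this scale, chromosomes 16 and 17 co-segregated 1.40 times as often as the shuffled libraries, the ratio ranked 3 among all autosome pairs. The unadjusted p was 0.0165 and the adjusted p was 0.222 over all pairs (stratified permutation test). Among all autosome pairs 0% passed after adjustment. Without adjustment 18 pairs (10.5%) were under 0.05, and 16 with 17 was the only such pair of the 6. With 10 strata of coverage in place of 5, 8 pairs were under 0.05 and the ratio of 16 and 17 was 1.25 (adjusted p = 0.778). The ratio of chromosomes 16 and 17 was 1.09 in the f13 libraries and 1.45 in the f14 libraries. Library f13b4 supplied 18.1% of its co-segregation, and without that library the ratio was 1.27.

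Chromosomes 18 and 19 had the lowest ratio of all autosome pairs, 0.725, with an unadjusted p of 0.138 and an adjusted p of 0.686. Their windows were together in 0.277% of libraries (interval 0.137% to 0.462%), and 26 libraries cut both. Library f13d2 alone supplied 26.1% of this, and the ratio was 0.618 without it. By prefix it was 0.969 in f13 and 0.568 in f14. The remaining pairs lay between, at 1.24 for chromosomes 17 and 19, 1.17 for 16 and 19, 1.07 for 16 and 18 and 0.943 for 17 and 18, with adjusted p from 0.737 to 0.918. The ratio of 17 and 19 was 0.980 in f13 and 1.43 in f14.

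**Figure D3:**
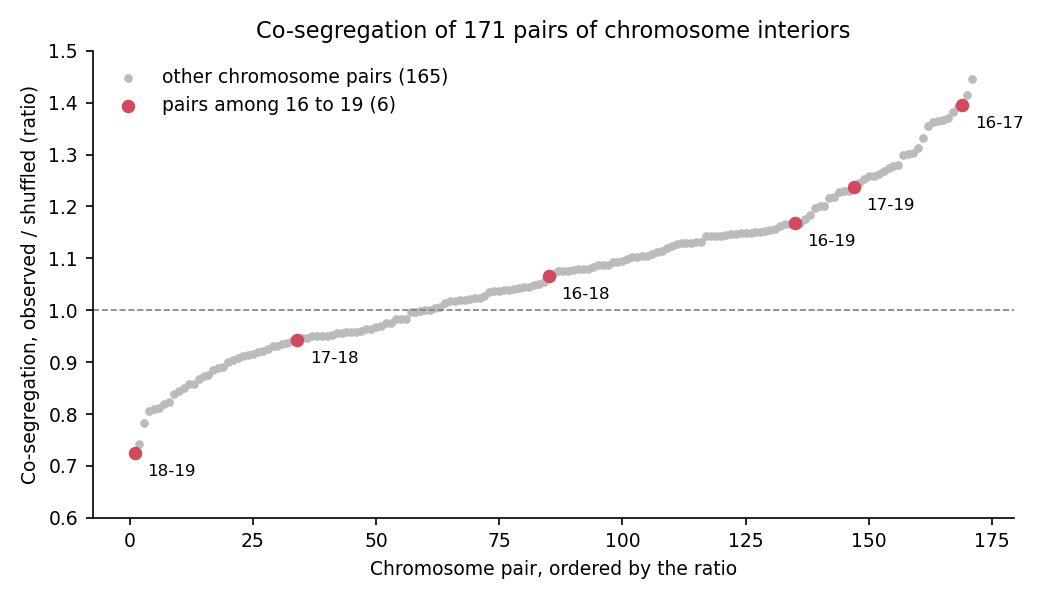
Ratio of observed to shuffled co-segregation (y axis) for every pair of chromosome interiors in order of the ratio (x axis), with the 6 pairs among chromosomes 16 to 19 marked. The marked pairs run from 0.725 for chromosomes 18 and 19, the lowest, to 1.40 for 16 and 17, below the highest ratio of 1.45 among the other pairs, and none passed the adjusted threshold.

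The gene-dense pair and the gene-poorer pair did not differ in trans beyond the spread between libraries. Divided by the product of mean coverages, co-segregation of chromosomes 17 and 19 was 1.45 and of 16 and 18 it was 1.22. The difference was 0.232 (interval -0.791 to 1.32, permutation p = 0.683), with -0.354 in f13 and 0.752 in f14 and 0.366 without library f13b2 and 0.0994 without f14g1. The last-named library, the one richest in chromosome 19, supplied 21.4% of the co-segregation of 17 and 19. The 4 mixed pairs averaged 0.342% of libraries (interval 0.228% to 0.473%), against 0.394% for 17 with 19 and 0.359% for 16 with 18.

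Within chromosome 17, windows with a protein-coding gene were detected more often than windows with none. They were positive in 5.78% ± 7.75 and 4.41% ± 6.50 of cases (SD, n = 74), a difference of 1.37 points (interval 0.672 to 2.12). The difference was positive in 44 libraries and negative in 20 (sign-flip permutation test, adjusted p = 0.00222 over 19 autosomes). Of all autosomes, 36.8% were called in this direction and 0% in the opposite one, so that chromosome 17 was among 7 of 19. Leaving out 1 library moved this count to between 5 and 10. Chromosome 16 (0.617, interval -0.137 to 1.40, adjusted p = 0.197) and chromosome 18 (0.159, interval -0.562 to 0.848, adjusted p = 0.662) did not pass. The chromosome 16 value was 0.382 in the f13 libraries and 0.817 in the f14 libraries. The chromosome 18 value was 0.0434 without library f13b2 and 0.302 without f13g5. On chromosome 19, where most windows hold a gene, the difference was -0.287 (interval -1.11 to 0.459, adjusted p = 0.522), although 32 libraries were higher in gene windows and 20 lower. Without library f14g1 it was -0.0626.

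The chromosome 17 contrast was 1.67 points in the f13 libraries (adjusted p = 0.0499) and 1.11 in the f14 libraries, where it missed the threshold (adjusted p = 0.0792). Weighted over 7 classes of GC content, an alternative added after seeing the data, it was 0.648 (interval 0.0371 to 1.28, adjusted p = 0.125), and 2 of 19 autosomes (10.5%) passed. The GC classes held only windows free of unknown bases, which are 1542 of the 1556 on chromosome 17. Over those windows without weighting, the contrast was 1.33 points and passed, and 4 of 19 autosomes passed. On the weighted scale chromosome 16 was at 0.311 (sign-flip permutation test, adjusted p = 0.391) and chromosome 18 turned to -0.328 (adjusted p = 0.241).

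Windows of chromosome 17 were found in a mean of 2.81 ± 1.60 libraries where GC content was under 38% and in 4.43 ± 2.06 where it was 48% or more (SD over 226 and 273 windows). The corresponding means were 3.45 and 3.80 on chromosome 16, 3.98 and 4.62 on 18 and 3.67 and 4.66 on 19. Coverage of windows at or over 42% GC exceeded that of windows under it by 1.23 points on chromosome 17 (interval 0.411 to 2.15, 38 libraries higher and 26 lower, adjusted p = 0.0502) and by 0.397 to 0.827 on the other 3. Of all 19 autosomes, 0% were called higher after adjustment.

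The gene-window contrast of chromosome 17 was larger than that of chromosome 19 by 1.65 points (interval 0.622 to 2.74, 45 libraries in this direction). The unadjusted p was 0.00332 and the adjusted p 0.0639 over all pairs of autosomes, of which 1.17% passed and 19.9% had an unadjusted p under 0.05. These pairs were looked at after the contrasts were seen. With GC weighting the difference was 0.799 (interval -0.121 to 1.77). Against chromosome 18 the difference was 1.21 (interval 0.195 to 2.29, adjusted p = 0.192) and against chromosome 16 it was 0.749 (interval -0.308 to 1.79, adjusted p = 0.475). With GC weighting the difference from chromosome 18 was 0.977 (interval 0.184 to 1.77, permutation adjusted p = 0.366). That from chromosome 16 was 0.337 with GC weighting (interval -0.630 to 1.27, permutation adjusted p = 0.956). Unweighted, it was 1.28 in the f13 libraries and 0.295 in the f14 libraries. Both parts of chromosome 17 had a positive difference, 0.985 points (interval -0.0599 to 2.06) in the proximal part and 1.63 (interval 0.763 to 2.60) in the distal part.

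**Figure D4:**
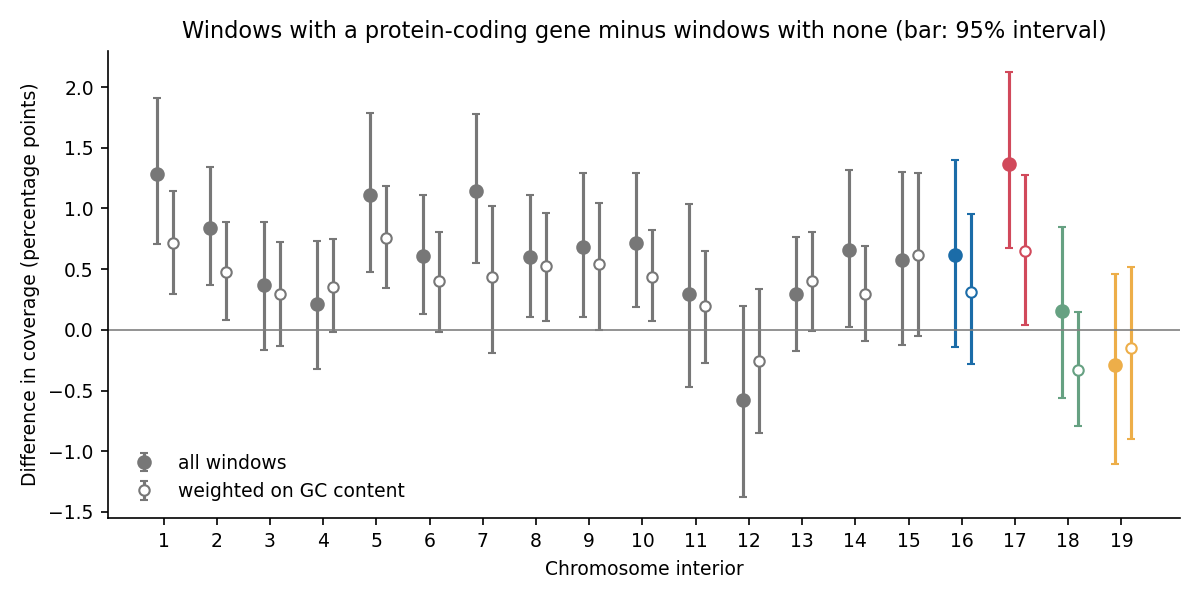
Coverage of windows with a protein-coding gene minus that of windows with none, in percentage points (y axis), for each autosome interior (x axis), as measured (filled) and weighted on GC content (open), with 95% intervals over resampled libraries. Chromosome 17 stands at 1.37 as measured and 0.648 when weighted, chromosome 19 at -0.287 and -0.150. The weighted values use windows free of unknown bases.

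Detection of single windows was low throughout. A window of the 4 interiors was positive in 3.95 ± 1.99 libraries (SD over 5340 windows), with a median of 4. Chromosome 18 had the highest mean (4.29) and chromosome 16 the lowest (3.76). In all, 96 windows (1.80%) were found in 0 libraries and 41 (0.768%) in 10 or more. On chromosomes 1 to 15 these shares were 3.09% and 1.43%. Over windows free of unknown bases, which leaves out 25 windows of the small chromosomes and 538 of the others, the shares found in 0 libraries were 1.66% and 2.18%. Over all windows, chromosome 18 had 11 (0.762%) in 0 libraries and 19 (1.32%) in 10 or more, while chromosome 19 had 15 (2.12%) and 2 (0.282%). The shares were 2.08% and 0.245% on chromosome 16 and 2.31% and 1.03% on 17. Over windows free of unknown bases, chromosome 18 had 8 in 0 libraries.

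The window in the most libraries lay on chromosome 17 (chr17:39960001-40000000) and was positive in 20 of 74 (27.03%, interval 18.2% to 38.1%). Its neighbours were positive in 2 and 4. It overlaps an exon of the annotated pseudogene AY036118 and no protein-coding gene, and its middle 150 bases are those printed above with 13 CpG. Whether reads of similar sequence elsewhere in the genome were placed in this window was not tested. Its count therefore cannot be read as how often this locus was cut. On chromosome 16 the highest was chr16:64720001-64760000 in 12 libraries (interval 9.53% to 26.2%), which overlaps an exon of the protein-coding gene 4930453N24Rik, with neighbours in 6 and 9. On chromosome 18, 6 windows tied at 11 libraries. The first of them, chr18:39720001-39760000, holds no annotated gene and has neighbours in 5 and 8. The second, chr18:55120001-55160000, overlaps an exon of Zfp608, a zinc finger protein gene, and has neighbours in 3 and 3, and the third, chr18:74200001-74240000, overlaps an exon of the kinase gene Mapk4 and has neighbours in 6 and 11. On chromosome 19, 2 windows tied at 10 libraries. The first, chr19:45720001-45760000, overlaps an exon of Fbxw4, which encodes an F-box and WD40 repeat protein, and has neighbours in 6 and 5, while the second, chr19:50080001-50120000, has neighbours in 8 and 8.

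Over 1 Mb blocks, detection rose and fell along each interior. Chromosome 16 was highest at 64 to 65 Mb (chr16:64000001-65000000), with a mean of 6.44 ± 2.66 libraries per window (SD over 25 windows). That block holds Htr1f, a serotonin receptor gene, and Cggbp1, which encodes a CGG repeat binding protein. It was lowest at chr16:83000001-84000000, which has 0 protein-coding genes (1.84 ± 0.688). The median over blocks was 3.60. Chromosome 17 was highest at chr17:32000001-33000000 (6.52 ± 1.96), a block of 20 protein-coding genes. Among them are Notch3, a receptor of the Notch pathway, and the Cyp4f cytochrome P450 cluster.

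On chromosome 17, 2 blocks tied as the lowest. One was chr17:49000001-50000000 (1.48 ± 0.918), with Kif6, Daam2, Lrfn2 and Mocs1, and the other was chr17:62000001-63000000 (1.48 ± 1.33), with the ephrin gene Efna5. Their GC contents were 46.0% and 38.0004%, against 45.9% in the highest block, and 6 windows of the second hold unknown bases. Chromosome 18 was highest at chr18:74000001-75000000 (7.92 ± 2.20), with Mbd1, which binds methylated DNA, Cxxc1, which binds unmethylated CpG, and the kinase gene Mapk4. Its lowest block, chr18:62000001-63000000 (2.64 ± 1.22), holds the serotonin receptor gene Htr4 and several Spink protease inhibitor genes. Chromosome 19 was highest at chr19:50000001-51000000 (6.04 ± 2.01), where Sorcs1 lies, a sorting receptor of the VPS10 family. It was lowest at chr19:39000001-40000000 (2.40 ± 1.66), which holds the Cyp2c cytochrome P450 cluster and Hells, a chromatin remodeller gene. Windows of a block share the same slices, so these SDs are not errors between replicates, and no test was made of blocks picked as highest and lowest.

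**Figure D5:**
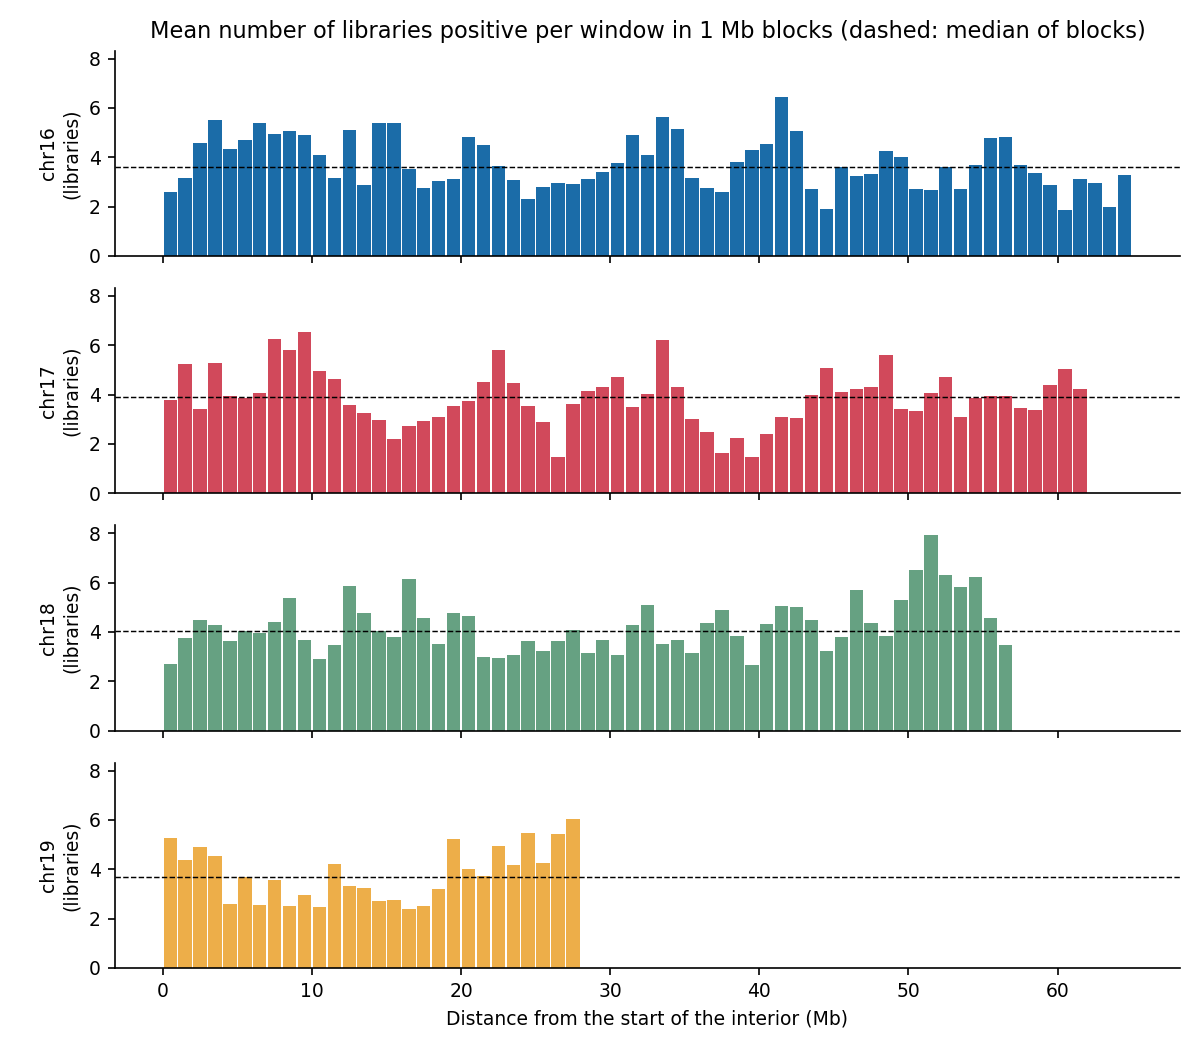
Mean number of libraries positive per window (y axis) in successive 1 Mb blocks counted from the start of each interior (x axis), with the median of the blocks as a dashed line. Most blocks lie near the medians of 3.60 to 4.04 libraries, and the highest, at 7.92, is on chromosome 18.

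Single genes were named by their roles and were held by 2 (Fgf8) to 25 (Dcc) of the 74 libraries. A library held a gene if at least 1 of its windows was positive, so a gene on more windows had more chances to be counted. The pluripotency genes Pou5f1 (chr17:35642982-35647721) and Dppa4 (chr16:48283848-48294405) were in 5 and 3 of 74 libraries (95% Wilson intervals 2.92% to 14.9% and 1.39% to 11.3%). Of the immune genes on chromosome 17, the class I histocompatibility gene H2-K1 was in 6 libraries, the class II gene H2-Ab1 in 7 and the cytokine gene Tnf in 3. The death receptor gene Fas on chromosome 19 was in 7 and the cytokine signalling kinase gene Jak2 in 3, each on 2 windows. The tumour suppressor gene Apc on chromosome 18, on 4 windows, was in 6 libraries. Lmnb1, which encodes lamin B1 of the nuclear lamina, lies on 2 windows and was in 3.

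The developmental regulators and signalling genes ranged from 2 to 12 libraries. Fgf8, a signalling protein gene that lies in 1 window, was in 2 libraries (interval 0.744% to 9.33%). The transcription factor gene Pax2, on 3 windows, was in 11, although the 1 Mb around Fgf8 was detected more (5.44 libraries per window) than that around Pax2 (4.04). Dmrt1, a sex-determination transcription factor gene on 3 windows, was in 8 libraries, and Egr1, an immediate early gene on 1 window, in 5. Smad7, an inhibitor of TGF-beta signalling on 1 window, was in 4 and the growth factor gene Vegfa, on 2 windows, in 5. Runx2, which encodes a transcription factor of bone, spans 9 windows and was in 12. The interval of Runx2 (9.53% to 26.2%) lay above that of Fgf8, which spans fewer windows. The intervals of all other pairs of these 7 genes overlapped.

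The gene on the most windows was in the most libraries, a count that grows with the number of windows. Dcc, a netrin receptor gene of 1092 kb on chromosome 18, spans 28 windows, and 25 libraries (interval 24.0% to 45.1%) held at least 1 of them. The window of its start site was in 3 libraries. Tcf4, a transcription factor gene, spans 10 windows and was in 15 libraries, Robo1, an axon guidance receptor gene, spans 11 and was in 12, and App, the amyloid precursor protein gene, spans 7 and was in 8. Gap43, a growth cone gene on 3 windows, was in 5. Mean detection per window within the 1 Mb around these genes ran from 3 (App) to 5.68 (Tcf4) libraries.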

How the data were processed

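The deposited table holds the authors' presence calls (0 or 1) of every 40 kb window of mm9 in 74 single nuclear profile libraries, whose DNA was amplified whole and made into Nextera libraries. The submitters' processing notes name Bowtie2 (version 2.1) and mm9. The study's methods name GAMtools with a fixed read threshold for multiplex libraries, and whether that rule was used for these single-profile libraries is not given in the sources used here. The values are neither counts nor normalized, and depth is unknown. A read threshold can turn a continuous stretch into scattered windows, which lowers filling and concordance.

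Members and gene lists were chosen with earlier results of these data known. Named windows and blocks were the most detected window and the highest and lowest 1 Mb block of each interior. Named libraries were those with the highest coverage, and loci were named by role; 1 of these loci is not reported here. Window annotation came from NCBIM37 and GENCODE vM1, whose chromosome lengths equalled the table's. Tests were two-sided permutations over libraries (100000 resamples; Python 3.11.15, NumPy 2.4.6): sign flips of paired differences, swaps of both classes within a library for pooled ratios, and shuffles within 5 strata of the coverage of the other autosomes for all autosome pairs. Adjustment was by Benjamini-Hochberg at 0.05. Intervals are 95%, from 10000 resamples of libraries. The scripts were tested on simulated tables. Alternatives covered sparse libraries, isolated windows, the name prefix, unknown bases, window size, the cut rule, strata and single libraries.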

Additional observations from a re-analysis of the deposited data

How the results depend on the processing

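Of 389 values recomputed under alternative settings, 354 kept their direction and their side of the threshold or stayed near the main value, and 22 changed sign, all of them values that passed no threshold. Concordance and the cis value at 0.04 Mb are 1 measure but were counted separately. In the f13 libraries alone, the difference between chromosomes 16 to 19 and 1 to 15 was -2.37 points for filling and -4.04 for concordance (the cis value at 0.04 Mb). It was -1.37 for the cis value at 1 Mb and 1.19 for cut frequency, and 2 of 7 distances passed. In the f14 libraries alone the difference was 1.22 for filling, 0.954 for concordance (the cis value at 0.04 Mb), 1.52 at 0.2 Mb and 1.64 at 4 Mb. Coverage against the other autosomes became 0.136 points for chromosome 17 in f13, and -0.364 for 18 and 0.630 for 19 in f14. In trans, f13 gave -0.354 for the pair 17 and 19 against 16 and 18 and a ratio of 0.980 for 17 and 19, and f14 gave 1.00 for 17 and 18.

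The number of autosomes with more detection in gene windows was 7 over all windows and libraries. It was 4 in f13, 1 in f14 and 4 with windows free of unknown bases. With isolated windows removed the number was 5, and leaving out 1 library gave from 5 (without f13a2) to 10 (without f14e4). These last values were counted above as near the main value. With GC weighting of the windows free of unknown bases (added after seeing the data) the number was 2. The gene-window difference became -0.328 with GC weighting and -0.00354 over whole chromosomes from 3 Mb for chromosome 18, and 0.192 over whole chromosomes for 19. With isolated windows removed, 4 autosome pairs passed in trans and the gene-dense minus gene-poorer difference at 20 Mb was -0.783. With 3 strata 1 pair passed, and with a single window counted as a cut the gene-dense difference was 2.59. The cause of each of these changes was not tested. Leaving out single libraries gave -0.179 to 0.337 for the coverage of chromosome 18 (below 0 without f14a6 or f14d2), -0.0120 to 1.15 at 1 Mb (below 0 without f14c5), -0.598 to 0.521 at 4 Mb and -0.488 to 0.0689 for gene-dense minus gene-poorer coverage (above 0 without f13b2 or f14a6).

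Classes of chromosomes were compared within each library, and no replicate numbers pair the libraries, which form a single group. The depth of a library is unknown, and 74 slices leave each window in a mean of 3.95 libraries. The gene-window counts changed without windows holding unknown bases and with GC weighting of the remaining windows. They also changed within either prefix, where fewer libraries entered, and when single libraries were left out.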
